A study of Mus musculus with 2 samples.

Results

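The cells described here are the *Pi16* and *Dpp4* fibroblasts of the mouse periosteum, the fibrous sheath on the outer face of bone. They were chosen by measured values: cells had 1000 to 5000 detected genes, under 25% mitochondrial UMIs and at least 10 UMIs of *Dpt* and *Clec3b* per 10000. The summed UMIs of *Pi16*, *Dpp4*, *Sema3e*, *Anxa8* and *Procr* also had to reach 3 and exceed those of *Gdf10*, *Inmt*, *Ccl11*, *Ms4a4d* and *Scn7a*. This rule found 1628 of the 9596 cells within the gene and mitochondrial limits. A UMI tags a captured mRNA molecule, so that its amplified copies count once.

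Periosteal cells of femurs and tibias from 8-week-old mice were sorted for the Ai9 reporter and captured on the BD Rhapsody system, with 1 library per genotype. The control library came from Prx1 Cre; Ai9/+ mice. The other came from Prx1 Cre; Ai9/+; Piezo1 fl/fl mice, in which the same Cre acts on floxed *Piezo1*, a mechanically gated ion channel. Cre is driven by *Prrx1* sequences and acts in limb mesenchyme from the embryo on, so both libraries hold Cre and the reporter. How many mice each library pooled is not given in the sources used here. With 1 library per genotype, the genotype and the library cannot be told apart, no test was made, and every interval is a 95% interval for counting error only.

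Fibroblasts of many mouse tissues include cells that carry *Pi16*, *Dpp4*, *Cd55*, *Sema3c* and *Ly6a* and lie in fascia and around large vessels. These are often called universal or adventitial fibroblasts and are known as a source of other fibroblasts. *Pi16* encodes a secreted peptidase inhibitor and *Dpp4* a serine peptidase of the cell surface, CD26. *Sema3e* encodes a secreted semaphorin, a guidance cue that binds plexin D1. *Anxa8* encodes a phospholipid-binding annexin, and *Procr* the receptor of protein C.

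The libraries held 28030299 and 32337308 UMIs in 6118 and 7469 barcodes, of which 50 barcode sequences occurred in both. Among the *Pi16* and *Dpp4* fibroblasts 5 and 7 cells carried a shared barcode, and in 0 cases did both cells of such a pair belong to them. Within the limits there were also cells with markers of other cell types, 156 and 116 endothelial, 333 and 405 mural and 406 and 520 blood cells. These groups, and the osteogenic one below, lay under the *Dpt* and *Clec3b* limit. Each cell went to the marker set with most UMIs, at least 3, and the osteogenic set was *Tnn*, *Sp7*, *Ibsp* and *Alpl*. *Piezo1* was at 3.93 CPM (the UMIs of a gene relative to all UMIs of its group, where 10000 CPM are 1%) in the *Pi16* and *Dpp4* fibroblasts of the control and 2.93 CPM in those of the Piezo1 fl/fl library, and its log2 ratio of −0.43 had an interval from −1.45 to 0.61. The capture reads the 3' end of transcripts, which may lie outside the deleted part, so this level checks nothing about the deletion.

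The *Pi16* and *Dpp4* fibroblasts made up 711 of 4455 control cells, 15.96% (14.9 to 17.1%), and 917 of 5141 cells of the Piezo1 fl/fl library, 17.8% (16.8 to 18.9%). These intervals overlap. The closest other group, called *Gdf10* and *Inmt* fibroblasts, passed the same *Dpt* and *Clec3b* limit with at least 3 UMIs of the *Gdf10* set and more of it than of the *Pi16* set, and held 572 (12.8%) and 653 cells (12.7%). The median depth was 5322 UMIs and 2144 genes per *Pi16* and *Dpp4* fibroblast in the control, and 6026 UMIs and 2287 genes in the Piezo1 fl/fl library. A deeper cell reaches 3 UMIs more easily, and the share at equal depth is given in the closing section. Of 1466 control and 2178 Piezo1 fl/fl cells past the *Dpt* and *Clec3b* limit, 711 and 917 were members. Those in neither fibroblast group numbered 183 (4.11% of all control cells) and 608 (11.8% of all Piezo1 fl/fl cells). The share of members thus depends on the cells it is taken of.

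Just inside the rule, 29 control and 84 Piezo1 fl/fl cells had exactly 3 UMIs of the *Pi16* set. Just outside it, 22 and 101 cells had 2 UMIs and still more than of the *Gdf10* set. A further 19 and 23 cells had equal sums of both sets, 175 and 167 had at least 3 UMIs of the *Pi16* set but more of the other, and 44 and 54 missed only the *Dpt* and *Clec3b* limit, at 5 to 10 per 10000. The median member held 13 UMIs of the *Pi16* set in the control library and 10 with Piezo1 fl/fl. The highest held 110 and 105.

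The genes that chose the cells stood as follows, as a description. *Pi16* was at 840.1 CPM (813 to 868) and 663 CPM (643 to 683) in the control and Piezo1 fl/fl libraries, against 112 and 146 CPM in the *Gdf10* and *Inmt* fibroblasts. *Dpp4* was at 348 and 233 CPM, against 62.8 and 43.7 CPM there. *Sema3e* reached 329 and 273 CPM and *Anxa8* 467 and 432 CPM, both under 25 CPM in the *Gdf10* and *Inmt* fibroblasts of either library. *Procr* was at 910.2 CPM in the control and 442 CPM in the Piezo1 fl/fl library, a gap between libraries that the other 4 genes did not reach. *Dpt*, the matrix protein dermatopontin, differed little from the *Gdf10* and *Inmt* fibroblasts, at 1646 and 1590 CPM against 1642 and 1895 CPM.

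**Figure D1:**
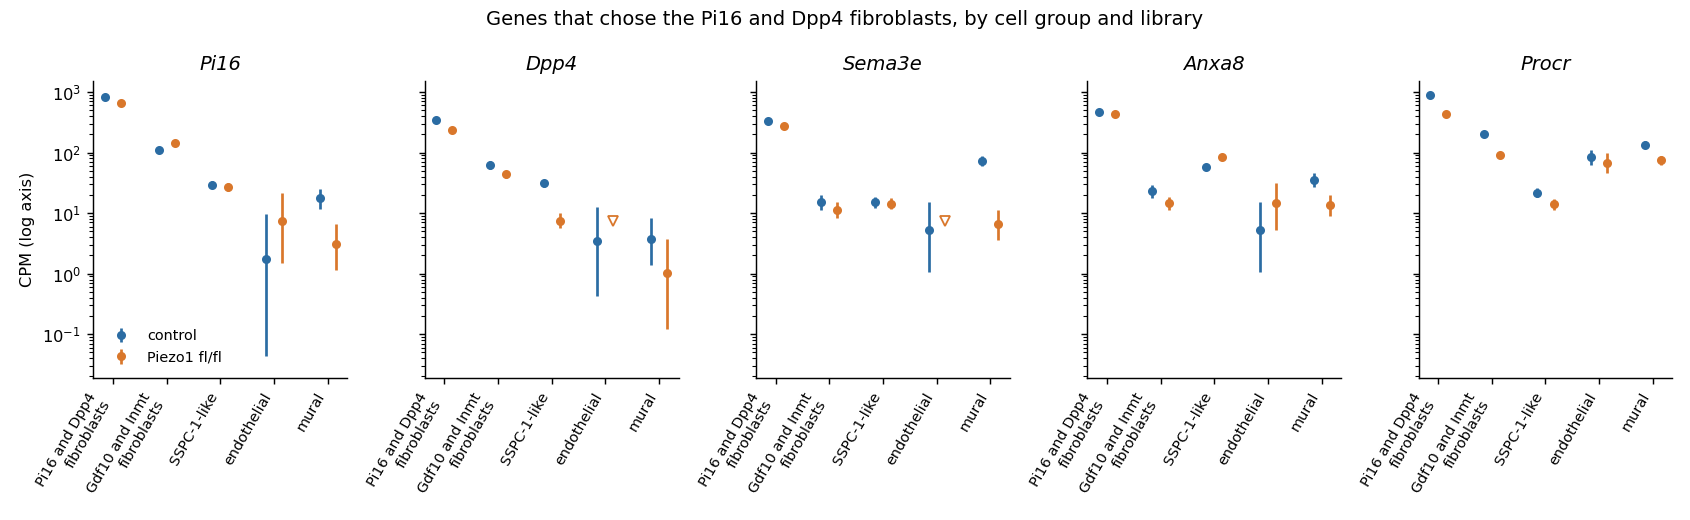
CPM on a log axis of the 5 genes that chose the *Pi16* and *Dpp4* fibroblasts, by cell group, with the control library in blue and the Piezo1 fl/fl library in orange. Bars are exact Poisson intervals, and open triangles mark a count of 0 at the level of 3 UMIs, which is 7.29 CPM in the endothelial cells of the Piezo1 fl/fl library. The *Pi16* and *Dpp4* fibroblasts are highest for all 5 genes, which the rule fixes, and *Procr* of the endothelial cells is at 83.5 and 68.0 CPM.

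The label was only partly met cell by cell. UMIs of both *Pi16* and *Dpp4* were present in 244 control cells, 34.3% (30.8 to 37.9%), and in 266 cells of the Piezo1 fl/fl library, 29.0% (26.1 to 32.1%). UMIs of exactly 1 of them were found in 329 and 460 cells, and 138 (19.4%, 16.6 to 22.5%) and 191 cells (20.8%, 18.2 to 23.6%) had neither and entered through *Sema3e*, *Anxa8* or *Procr*. The name is therefore kept for the group and its summed levels, not for each cell. All 5 genes occurred together in 57 cells (8.02%) and 42 cells (4.58%).

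At an equal depth of 2500 UMIs per cell, *Pi16* was found in 43.8% (39.9 to 47.7%) of control and 40.2% (36.9 to 43.5%) of Piezo1 fl/fl members, and *Dpp4* in 48.0% (44.1 to 51.9%) and 37.6% (34.4 to 40.9%). *Procr* was found in 71.1% (67.5 to 74.6%) and 49.4% (46.0 to 52.8%). In endothelial cells, which give the level of free RNA and had median depths of 2903.5 and 2960.5 UMIs, *Procr* was at 83.5 and 68.0 CPM and *Pi16* at 1.74 and 7.29 CPM. Endothelial cells carry *Procr* themselves, so its level there is no pure background. Thinning left out 53 members in each library.

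*Pi16* was found less often in members that held *Sema3e* or *Anxa8*. Among control members with a *Sema3e* UMI, 30.7% (25.2 to 36.8%) had *Pi16*, against 52.1% (47.1 to 57.1%) of those without it, and in the Piezo1 fl/fl library the shares were 20.5% and 51.3%. With *Anxa8* they were 32.7% against 52.7% in the control, and 24.1% against 52.3% in the Piezo1 fl/fl library. *Sema3e* and *Anxa8* went the other way: 48.6% of control members with *Anxa8* had *Sema3e*, against 31.3% of those without, and 49.1% against 26.3% in the Piezo1 fl/fl library. Since a sum of these genes chose the cells, a cell low in one had to be higher in another, and such a rule by itself lowers their overlap.

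The same was therefore read in *Dpt* and *Clec3b* cells chosen with *Dpp4* and *Procr* alone, 505 control and 477 Piezo1 fl/fl cells, a choice made after the first shares were seen. *Pi16* was in 34.5% (28.0 to 41.4%) of control cells with *Sema3e* and 44.6% (38.6 to 50.8%) of those without, intervals that overlap. In the Piezo1 fl/fl library the shares were 25.9% (19.4 to 33.4%) and 47.4% (41.5 to 53.3%), which do not overlap. With *Anxa8* they were 32.9% (26.7 to 39.5%) against 46.5% (40.3 to 52.8%), and 22.9% (16.9 to 30.0%) against 49.8% (43.8 to 55.8%), apart in both libraries. *Sema3e* was in 52.1% (45.2 to 58.8%) of control cells with *Anxa8* against 35.9% (30.1 to 42.1%) of those without, and in 56.5% against 23.7% in the Piezo1 fl/fl library.

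**Figure D2:**
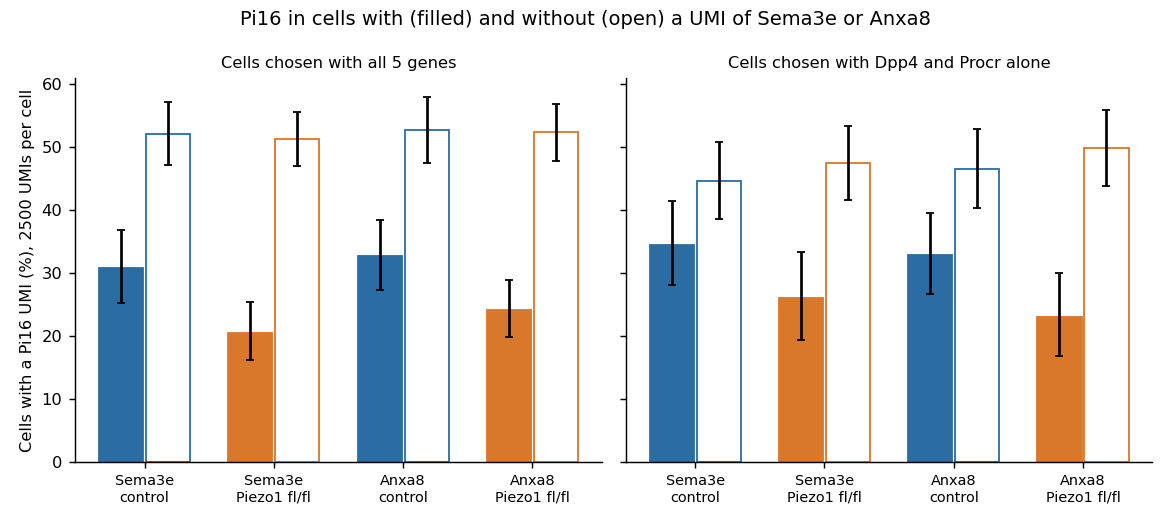
Percent of cells with a *Pi16* UMI at 2500 UMIs per cell, among cells with (filled) and without (open) a UMI of *Sema3e* or *Anxa8*, in the control (blue) and Piezo1 fl/fl (orange) libraries, with exact binomial intervals. The filled bar is the lower in each pair. On the left, cells were chosen with all 5 genes, a rule that by itself lowers this overlap. On the right, they were chosen with *Dpp4* and *Procr*, after the first shares were seen. The narrowest gap is 34.5% against 44.6%.

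The next comparison asked how these cells differ from the *Gdf10* and *Inmt* fibroblasts, outside the 12 genes of the rule. Most genes listed for the universal fibroblast program were at least 2-fold higher in the *Pi16* and *Dpp4* fibroblasts, and 9 of the 17 measured genes of stromal and adipogenic fibroblasts were at least 2-fold lower. Of 9030 genes with at least 50 UMIs over both groups in each library, 187 (2.07%) were at least 2-fold higher in both libraries and 224 (2.48%) at least 2-fold lower. The rule drew this contrast, so these counts and all values below are a description. The median log2 ratio over all these genes was 0.03 in either library.

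Among the genes furthest above, some were spread over many cells. *Duox1*, an enzyme that makes hydrogen peroxide, was at 101 and 87.2 CPM in the control and Piezo1 fl/fl libraries, against 11.8 and 16.6 CPM in the *Gdf10* and *Inmt* fibroblasts, log2 ratios of 3.09 (2.63 to 3.63) and 2.38 (2.03 to 2.77). *Chst15*, a sulfotransferase of chondroitin sulfate, was at 71.3 and 106 CPM against 9.28 and 10.5 CPM. *Uchl1*, a ubiquitin hydrolase known from neurons, was at 110 and 50.7 CPM against 8.97 and 10.7 CPM. *Ptgs1*, which encodes cyclooxygenase 1, was at 93.0 and 53.6 CPM against 12.7 and 11.4 CPM. For these 4 genes the 5 members with most UMIs held between 7.12% and 16.7% of all their UMIs.

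*Clic5* and *Hbegf*, by contrast, were carried by few cells. Of the UMIs of *Clic5*, a chloride intracellular channel protein, 80.3% came from 5 control members and 67.4% from 5 members of the Piezo1 fl/fl library, and only 44 and 37 members held any. For *Hbegf*, a ligand of the EGF receptor, the 5 highest members held 78.8% and 50.3%. *Aqp1*, the water channel, was found at equal depth in 21.1% and 35.8% of members against 5.42% and 6.95% of the *Gdf10* and *Inmt* fibroblasts, with log2 ratios of 2.82 and 3.36. *Crabp2*, which binds retinoic acid inside the cell, differed between libraries, at 54.4 CPM in the control and 178 CPM in the Piezo1 fl/fl library, against 6.496 and 17.6 CPM in the *Gdf10* and *Inmt* fibroblasts. *Rgcc* and *Lrrc15* completed the 10 genes furthest above, at 116 and 148 CPM, and at 77.1 and 51.9 CPM. Endothelial cells held *Clic5* at 1069 and 855 CPM, *Aqp1* at 5104 and 2789 CPM and *Rgcc* at 536 and 719 CPM, while the 7 endothelial markers summed to 19.9 and 9.09 CPM in the members, and their part in these differences was not tested.

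Among the genes furthest below, the complement proteases *Masp1* and *C2* were at 4.17 and 4.78 CPM, and at 14.1 and 14.6 CPM, against 62.8 and 54.5 CPM, and 130 and 166 CPM, in the *Gdf10* and *Inmt* fibroblasts. *Cxcl14*, a chemokine, was at 274 and 264 CPM against 2484 and 1817 CPM, log2 ratios of −3.18 (−3.27 to −3.09) and −2.79 (−2.86 to −2.71). *Smoc2*, a matricellular protein, was at 96.5 and 76.2 CPM against 774 and 491 CPM. *Steap4*, *Abcc9*, *Adh1*, *Fmo2* and *Tmem204* also belonged to these genes, and their log2 ratios lay between −5.43 (*Abcc9* in the Piezo1 fl/fl library) and −2.68 (*Tmem204* in the control).

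**Figure D3:**
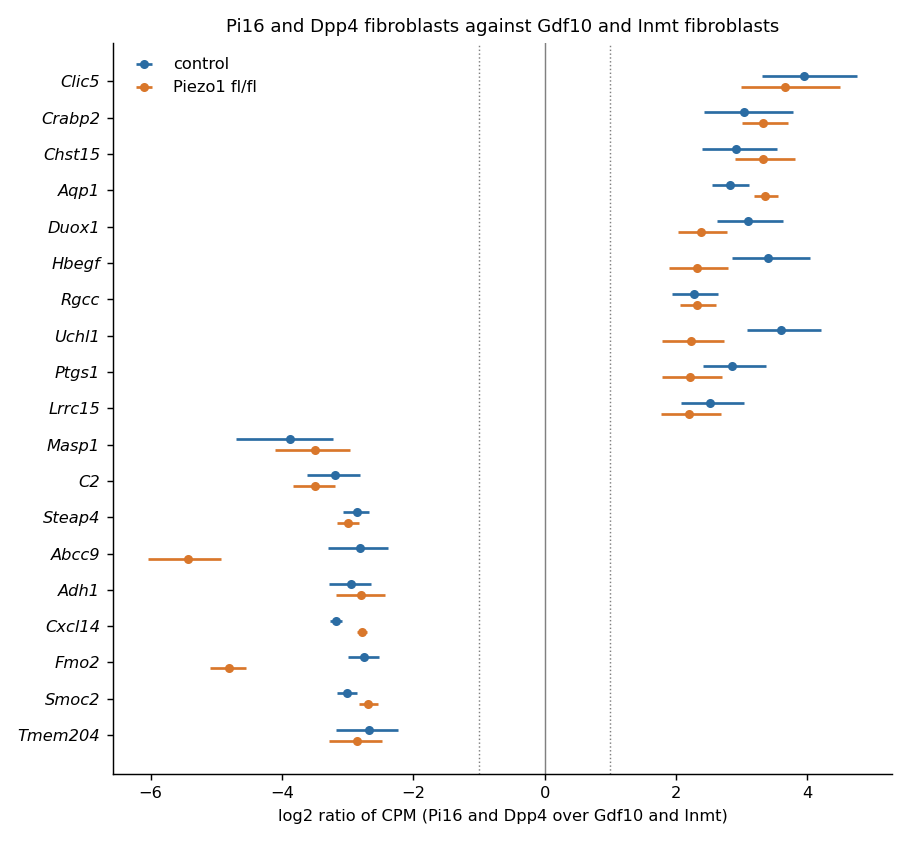
Log2 ratio of CPM of the *Pi16* and *Dpp4* over the *Gdf10* and *Inmt* fibroblasts for the 10 genes furthest above and 9 of the 10 furthest below, in the control (blue) and Piezo1 fl/fl (orange) libraries, with exact conditional intervals. Dotted lines mark 2-fold. Every point lies past 2-fold on the same side in both libraries, which the choice of genes fixes, and *Abcc9* and *Fmo2* are lower in the Piezo1 fl/fl library, at −5.43 and −4.80, than in the control, at −2.82 and −2.75.

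Of 24 genes listed for the universal fibroblast program, 14 were at least 2-fold higher and 0 lower, with medians of 1.36 and 1.06 in the control and Piezo1 fl/fl libraries, against 0.03 over all genes. *Sema3c*, a semaphorin, was at 1476 and 1146 CPM against 415 and 413 CPM. *Cd55*, which protects cells from complement, was at 1019 and 696 CPM against 216 and 193 CPM. *Ackr3*, a receptor that removes CXCL12, was at 1331 and 1205 CPM against 473 and 510.0 CPM. *Cd34* and *Ly6a* of the same list differed little between both kinds of fibroblast, with log2 ratios of 0.35 and 0.29, and of 0.26 and 0.22. *Il33*, an alarmin cytokine of the list, lay at −0.30 and −0.37.

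Of 17 measured genes of the stromal and adipogenic list, 9 were at least 2-fold lower and 0 higher, with medians of −1.97 and −1.27. *Cxcl12*, the ligand of CXCR4, was at 127 and 170 CPM against 651 and 857 CPM. *Lpl*, lipoprotein lipase, was at 312 and 115 CPM against 1536 and 581 CPM, and *Apod*, a lipid carrier, at 620 and 670 CPM against 2431 and 1860 CPM.

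Of the 11 measured genes of the hyaluronan list 3 were higher by at least 2-fold and 0 lower, with medians of 1.17 and 0.92. They were *Ugdh*, *Uap1* and *Prg4*, which encodes lubricin and whose uneven spread over cells is given below. *Ugdh* and *Uap1*, which make the sugar nucleotides used for hyaluronan, were at 1519 and 1291 CPM, and at 943 and 937 CPM, against 406 and 466 CPM, and 334 and 383 CPM. *Has1*, a hyaluronan synthase, was higher only in the control, at 675 against 249 CPM, while the Piezo1 fl/fl library gave 330 against 338 CPM.

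The elastic fibre list was mixed, with 3 of 18 genes higher and 4 lower. *Fbn1*, fibrillin 1, was at 4811 and 4407 CPM against 2390 and 2198 CPM. *Eln*, elastin, was at 147 and 139 CPM against 577 and 1748 CPM, and *Mfap4* at 90.5 and 108 CPM against 249 and 503 CPM. Of 16 collagen genes 2 were lower, the basement membrane chains *Col4a1* and *Col4a2*, and 0 higher.

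In the Wnt list, 4 of 13 genes were higher and 2 lower. *Wnt10b*, a Wnt ligand, was at 88.2 and 47.4 CPM against 11.4 and 6.90 CPM. *Wnt2* was lower in level, at 32.9 and 35.6 CPM against 2.48 and 3.09 CPM. *Dact2*, an intracellular modulator of Wnt and Nodal signals, was at 47.4 and 24.95 CPM against 3.09 and 2.14 CPM. The secreted inhibitors *Sfrp1* and *Sfrp2* went the other way, at 105 and 118 CPM, and at 47.9 and 34.4 CPM, against 626 and 584 CPM, and 149 and 225 CPM.

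Among guidance genes 3 of 17 were higher and 4 lower. *Sema3a*, a further semaphorin, was at 27.3 and 24.0 CPM against 1.86 and 4.52 CPM, and *Robo1*, a Slit receptor, had log2 ratios of 1.23 and 1.48. *Nrp1*, a semaphorin receptor, and the ligand *Slit2* were lower, at −1.57 and −1.19, and at −1.74 and −1.17. In the TGF-beta and BMP list *Bmp3* alone was higher, of 17 genes, at 34.3 and 10.6 CPM against 2.17 and 2.14 CPM. Of 27 transcription factors *Creb5* was higher, at 563 and 437 CPM against 220 and 207 CPM, and 4 were lower, among them *Meox1* at 9.72 and 11.6 CPM against 68.4 and 58.7 CPM. Of 11 mechanosensing genes 0 were past 2-fold in both libraries.

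The complement and coagulation list held 2 higher and 4 lower of 18 genes, with medians of −0.50 and −0.68. *Cd55* and *F13a1* were the higher, and *C2*, *Clu* and *F3* were among the lower. Of 21 chemokine and cytokine genes 3 were higher, *Il18*, *Ackr3* and *Ackr4*, and 4 lower, *Cxcl12*, *Cxcl14*, *Cxcl16* and *Il1r1*. Of 13 annexin and S100 genes *Anxa3* and *S100a4* were higher and 0 lower. *Anxa3* was at 336 and 245 CPM against 90.9 and 90.1 CPM.

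Against all other cells, of 11810 genes 288 (2.44%) were at least 2-fold higher in the *Pi16* and *Dpp4* fibroblasts in both libraries and 1493 (12.6%) lower. All 24 of the universal fibroblast genes were among the higher, with medians of 2.31 and 1.95 against −0.01 and −0.05 over all genes. This too is a description, since the rule drew the contrast and the list was chosen with earlier results known. The 8 named genes furthest above were *Duox1*, *Efhd1*, *Ackr2*, *Ociad2*, *Cd55*, *Islr2*, *Cadm3* and *Ackr1*. *Efhd1*, a calcium-binding protein of mitochondria, was at 334 and 226 CPM against 24.4 and 24.3 CPM. *Cadm3*, an adhesion molecule, was at 391 and 408 CPM against 44.6 and 62.5 CPM. *Ackr2* and *Ackr1*, atypical receptors that bind chemokines without signalling through G proteins, were at 105 and 95.3 CPM, and at 206 and 178 CPM, against 10.4 and 11.1 CPM, and 24.0 and 27.7 CPM.

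The genes furthest below in that contrast belonged to other cells: *Spp1* and *Mmp13* of bone, *Col2a1* of cartilage, *Pcp4l1*, and *Rgs1*, *Ctss*, *Ms4a6c* and *Adgre1* of blood cells. *Spp1* was at 10.4 and 16.2 CPM against 654 and 1033 CPM. *Adgre1*, which encodes F4/80 of macrophages, was at 1.62 and 2.46 CPM against 71.6 and 76.9 CPM. Over whole marker lists, the 8 SSPC-1 markers and the 12 osteogenic markers were all at least 2-fold lower, as were all 7 endothelial markers.

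The members were not uniform. By a split chosen after the data were seen, 275 control (38.7%) and 332 Piezo1 fl/fl members (36.2%) had more *Pi16* than *Sema3e* and *Anxa8* together and are called *Pi16*-led, and 357 (50.2%) and 489 (53.3%) had less and are called *Sema3e* and *Anxa8*-led. In 79 and 96 the counts were equal. The split used these 3 genes, so other genes are described without a test. *Dpp4* differed little between them, at 355 and 257 CPM in *Pi16*-led against 347 and 210.0 CPM in *Sema3e* and *Anxa8*-led cells. Median depth was 5062 UMIs in *Pi16*-led against 5699 in *Sema3e* and *Anxa8*-led cells of the control, and 5244 against 6782 UMIs in those of the Piezo1 fl/fl library.

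Of 7397 genes, 170 (2.3%) were at least 2-fold higher in *Pi16*-led cells in both libraries and 113 (1.53%) lower. *C3*, the central complement protein, was at 1470 and 1133 CPM in *Pi16*-led against 362 and 215 CPM in *Sema3e* and *Anxa8*-led cells. *Cmah*, a sialic acid hydroxylase, was at 175 and 182 CPM against 28.2 and 18.8 CPM. *Tek*, the angiopoietin receptor TIE2, was at 154 and 87.2 CPM against 37.3 and 18.5 CPM, and *Aldh1a3*, which makes retinoic acid, at 112 and 97.7 CPM against 23.4 and 14.4 CPM. *Lgi2*, *Calcrl*, *Slc43a3*, *Cd200*, *Car8* and *H19* were also named, with log2 ratios between 2.02 and 4.95. The upper value is that of *H19* in the control, where 5 members held 67.4% of its UMIs.

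On the other side, *Aqp1* was at 447 and 1041 CPM in *Sema3e* and *Anxa8*-led against 23.0 and 25.4 CPM in *Pi16*-led cells. *S100a4*, a calcium-binding protein, was at 780.1 and 880 CPM against 57.2 and 79.8 CPM. *Scg3*, a secretory granule protein, was at 203 and 140.1 CPM against 16.8 and 8.97 CPM. *Mamdc2*, *Ociad2*, *Crabp2* and *Wdr19* had log2 ratios of *Pi16*-led over *Sema3e* and *Anxa8*-led cells between −3.48 and −2.88. *Kera*, keratocan of cornea and tendon, *F13a1*, the A chain of factor XIII, and *Hbegf* completed the 10 and were carried by few cells, since 5 control members held 85.8%, 56.5% and 78.8% of their UMIs.

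**Figure D4:**
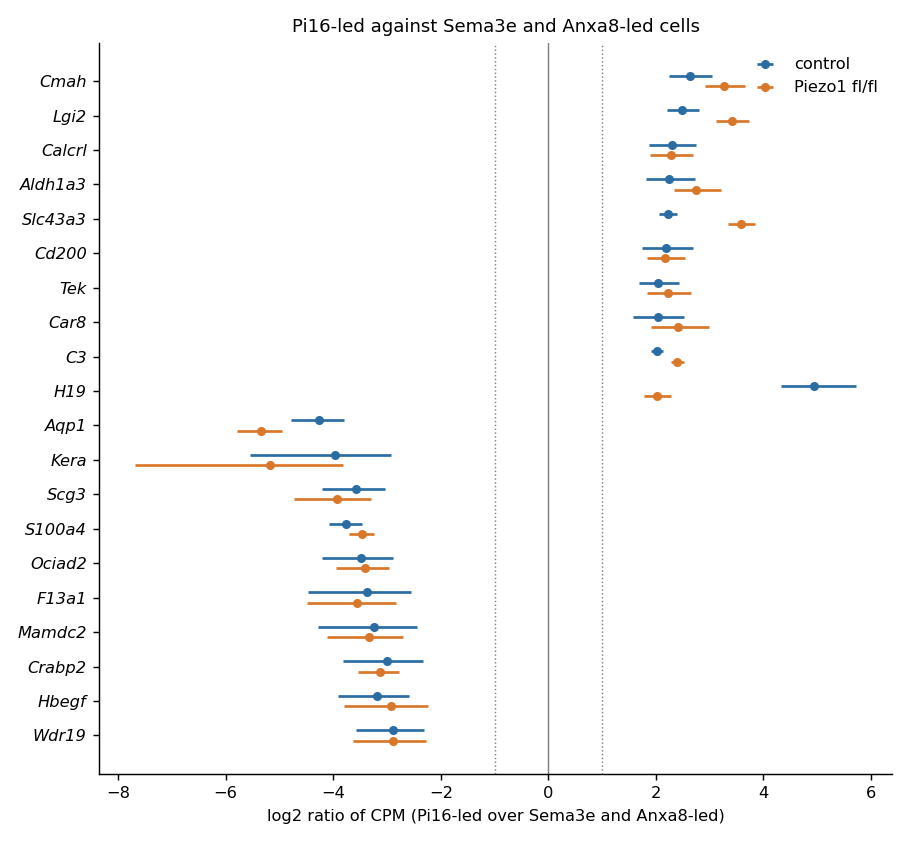
Log2 ratio of CPM of *Pi16*-led over *Sema3e* and *Anxa8*-led cells for the 10 genes furthest above and the 10 furthest below, in the control (blue) and Piezo1 fl/fl (orange) libraries, with exact conditional intervals. Dotted lines mark 2-fold. *Aqp1* lies at −4.26 and −5.34, and *Cmah* at 2.63 and 3.27.

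In the lists, *Pi16*-led cells were at least 2-fold higher in 6 of 24 universal fibroblast genes, among them *Il33* at 179 and 261 CPM against 30.8 and 89.98 CPM, and lower in 0. They were also higher in 6 of 15 stromal and adipogenic genes and lower in 0, with medians of 1.01 and 0.90. Of the 11 genes known to respond to tissue dissociation, 4 were higher, *Jun*, *Egr1*, *Atf3* and *Ier2*, and the 11 summed to 18198 and 19006 CPM in *Pi16*-led against 10425 and 7453 CPM in *Sema3e* and *Anxa8*-led cells. The dissociation genes moved with the split, and their part in its other differences was not tested. *Piezo2*, a mechanically gated channel related to *Piezo1*, was the only mechanosensing gene past 2-fold, at 11.8 and 30.9 CPM in *Pi16*-led against 49.8 and 79.2 CPM in *Sema3e* and *Anxa8*-led cells.

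Genes of joint and tendon lining cells were uneven among the members. All 6 of the list were at least 2-fold higher than in the *Gdf10* and *Inmt* fibroblasts. All but *Prg4* were at least 2-fold lower in *Pi16*-led than in *Sema3e* and *Anxa8*-led cells of both libraries. *Prg4*, lubricin, which coats gliding surfaces, was at 4029 and 3233 CPM against 972 and 1491 CPM in the *Gdf10* and *Inmt* fibroblasts, yet at equal depth it was found in 50.2% and 57.2% against 50.8% and 46.8% of cells. In the control 5 members held 53.7% of the UMIs of the 6 genes, and in the Piezo1 fl/fl library 30.6%. The median member had 2.96 and 5.12 UMIs of the list per 10000, against 2.73 and 2.85 in the *Gdf10* and *Inmt* fibroblasts. Members with at least 100 per 10000 numbered 31 (4.36%) and 43 (4.69%).

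Lining genes also differed with *Pi16* and *Dpp4* themselves. Of the members with at least 100 per 10000, 10 and 22 had neither gene, which is 7.25% and 11.5% of all members with neither, and 4 and 5 had both, which is 1.64% and 1.88% of all members with both. The 6 genes summed to 13960 and 9602 CPM in cells with neither, against 1209 and 1382 CPM in cells with both. Without the 5 highest cells of each group the sums were 2499 and 4724 CPM against 788 and 979 CPM. Tendon genes also summed higher in cells with neither, at 2052 and 2478 CPM against 984 and 719 CPM, and the universal fibroblast genes lower, at 22021 and 18974 CPM against 35595 and 34503 CPM.

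The last comparison set the Piezo1 fl/fl library beside the control within the *Pi16* and *Dpp4* fibroblasts. Of 9688 genes with at least 50 UMIs over both libraries, 133 (1.37%) were at least 2-fold higher and 147 (1.52%) at least 2-fold lower in the Piezo1 fl/fl library, with a median log2 ratio of −0.04 over all. Values in the *Gdf10* and *Inmt* fibroblasts and in all other cells, given beside those of the members, come from the same libraries and share whatever separates them. Of the 133 higher genes, 107 had the same direction in the *Gdf10* and *Inmt* fibroblasts and 103 in all other cells. Of the 147 lower genes, 122 and 119 did. Past 2-fold in that direction were 44 and 27 of the higher genes, and 42 and 27 of the lower.

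Neutrophil genes led the higher side. *S100a9* was at 156 CPM in the Piezo1 fl/fl library against 1.85 CPM in the control, a log2 ratio of 6.31 (5.41 to 7.61), and *S100a8* at 96.6 against 3.70 CPM. *Ngp* had 395 UMIs against 1, a log2 ratio of 7.46 (5.55 to 13.35), and 85.1% of them came from 5 members. All 3 were also higher in all other cells of the Piezo1 fl/fl library, by log2 ratios of 4.89, 4.95 and 7.60. Without the 5 highest members of each library, *S100a9* stood at 5.67 and *S100a8* at 2.95. *S100a8* is itself one of the 9 blood markers, which summed to 119 CPM in the control and 209 CPM in the Piezo1 fl/fl members. The other 8 summed to 115 CPM (105 to 126) and 113 CPM (105 to 121). That sum held opposite moves, since *Tyrobp* was at least 2-fold higher and *Cd74* at least 2-fold lower. Over the 6 of the 9 markers that were measured, *S100a8* included, the median log2 ratio was 0.40.

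*Scx*, a transcription factor of tendon cells, was at 58.8 CPM against 3.70 CPM, a log2 ratio of 3.95 (3.27 to 4.81). It was also higher in the *Gdf10* and *Inmt* fibroblasts, at 4.44 (2.46 to 10.35), and in all other cells, at 2.56 (2.45 to 2.69). *Thbs4*, a thrombospondin of tendon, was at 1499 against 424 CPM, a log2 ratio of 1.82 (1.75 to 1.89), and lay at 1.24 and 0.69 in these groups. *Fam180a* and *Enpp1*, an enzyme that makes pyrophosphate, were higher among the *Pi16* and *Dpp4* fibroblasts, at 98.7 against 22.4 CPM and at 52.1 against 14.1 CPM, while their log2 ratios in the *Gdf10* and *Inmt* fibroblasts were −0.51 (−0.99 to −0.03) and 0.04 (−0.37 to 0.45). *Fam180a* was carried by *Sema3e* and *Anxa8*-led cells, with a log2 ratio of 2.19 (1.86 to 2.56) there and −0.10 (−1.08 to 0.90) in *Pi16*-led cells. *Srgn*, the proteoglycan serglycin of blood and endothelial cells, was at 66.5 against 14.1 CPM.

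On the lower side, *Acta1*, skeletal muscle actin, was at 4.47 against 56.2 CPM, but 1 control member held 88.5% of its UMIs there, and without the 5 highest members the log2 ratio was −0.66 (−1.65 to 0.32). *Tnn*, tenascin N of osteogenic periosteum, was at 26.96 against 172 CPM, with 38.0% of the control UMIs in 1 member, and the log2 ratio was −2.27 without the 5 highest members of each library. It was lower in all other cells too, at −1.65. Osteogenic cells made up 18.6% of all control cells within the limits and 8.75% of those with Piezo1 fl/fl. *Tnn* is among the genes that chose the osteogenic cells, so lower *Tnn* by itself lowers this share. The part of this shift in the result was not tested. *Dpep1*, a membrane dipeptidase, was at 56.8 against 206 CPM, a log2 ratio of −1.86 (−2.04 to −1.68), and only 8.88% of its control UMIs came from 5 members. *C7*, a component of the complement attack complex, was at 27.4 against 89.1 CPM. Both were lower in the *Gdf10* and *Inmt* fibroblasts as well, at −0.81 and −0.70.

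*Ptx3*, a soluble pattern recognition protein, went one way here and the other elsewhere. It was at 51.6 against 167 CPM in the *Pi16* and *Dpp4* fibroblasts, a log2 ratio of −1.69, but at 0.71 (0.50 to 0.92) in the *Gdf10* and *Inmt* fibroblasts and 1.19 (1.05 to 1.34) in all other cells. *Cxcl13*, a B cell chemokine, was at 18.2 against 79.4 CPM, with 5 members holding 59.8% of the control UMIs, and at 0.07 (−0.17 to 0.31) in the *Gdf10* and *Inmt* fibroblasts. *Sult5a1* and *Slc16a9* had log2 ratios of −1.69 and −1.52, and of −0.92 and −1.07 in the *Gdf10* and *Inmt* fibroblasts. *Sult5a1*, *Dpep1* and *Acta1* lie on chromosome 8 near *Piezo1* in the GENCODE vM21 annotation, which may not be the one behind the counts. Their starts are 123140192, 123186242 and 123891769, against 122481698 for *Piezo1*. The part of this position beside the floxed gene in their ratios was not tested.

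**Figure D5:**
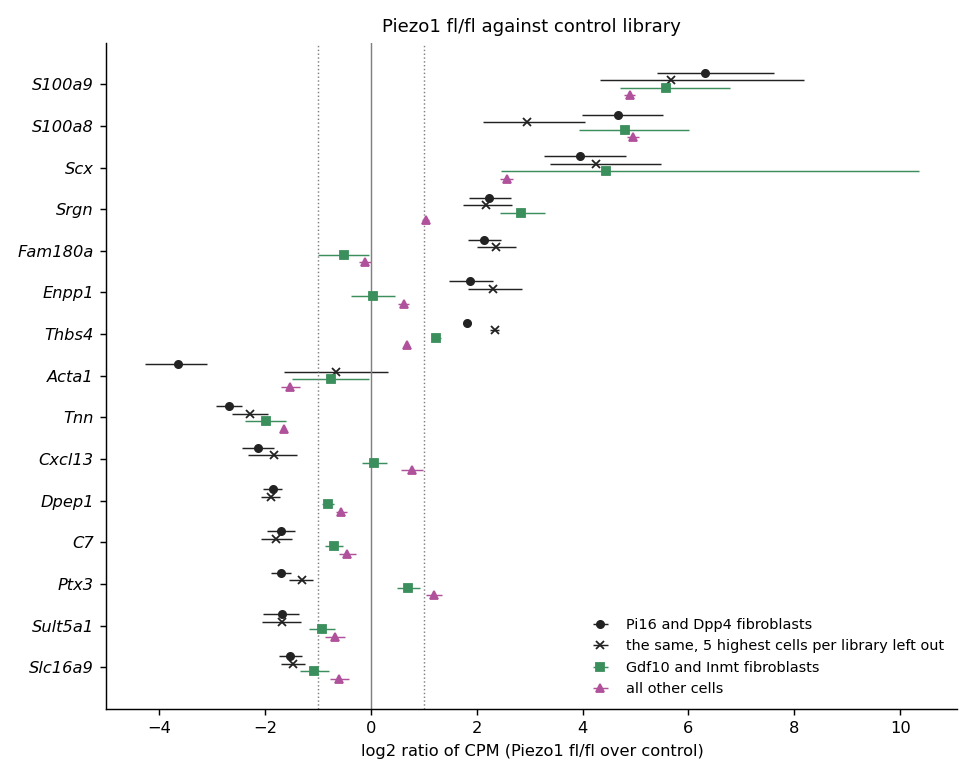
Log2 ratio of CPM of the Piezo1 fl/fl over the control library for 15 of the 16 named genes, in the *Pi16* and *Dpp4* fibroblasts with all cells (circles) and without the 5 highest cells of each library (crosses), in the *Gdf10* and *Inmt* fibroblasts (squares) and in all other cells (triangles), with exact conditional intervals. Dotted lines mark 2-fold. *Ngp* is left out because the control members had 1 UMI. *Acta1* moves from −3.63 to −0.66 without 5 cells, and *Ptx3* and *Cxcl13* lie on the lower side only in the *Pi16* and *Dpp4* fibroblasts.

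By list, 0 of 24 universal fibroblast genes were at least 2-fold higher in the Piezo1 fl/fl members and 2 were lower, *Opcml* and *Uchl1*, with a median of −0.36. Of 16 collagen genes *Col6a3* was higher and 0 were lower, with a median of 0.45. Of 16 stromal and adipogenic genes *G0s2* was higher and *Lpl* and *Cd36* were lower. *Scx* and *Tnmd* were the higher of 8 tendon genes, and *Egfl6* and *Thbs4* of 8 SSPC-1 markers. Of 10 osteogenic markers 4 were lower, *Tnn*, *Dlx5*, *Bglap* and *Bglap2*, and 0 higher by at least 2-fold, with a median of −0.85. *Spp1* of that list rose at equal depth, from a mean of 0.024 UMIs per control member to 0.039. The mean of *Ibsp* went from 0.078 to 0.104. The highest Piezo1 fl/fl member held 54 *Ibsp* UMIs, against 9 in the highest control member, so the higher mean of *Ibsp* rests on that member. The share of osteogenic cells, chosen with *Tnn*, *Sp7*, *Ibsp* and *Alpl* of the osteogenic list, was lower in that library, and its part was not tested. Of 6 mural markers 4 were at least 2-fold higher, *Acta2*, *Myh11*, *Notch3* and *Cspg4*, and *Abcc9* was lower. At equal depth the mean of *Rgs5* fell from 0.140 to 0.059 UMIs per member, and the highest control member held 37. That of *Cspg4* rose from 0.082 to 0.256. The mural markers summed to 154 CPM in the control and 254 CPM in the Piezo1 fl/fl members, and their part in the other differences was not tested. The rule genes, whose levels chose the cells, had log2 ratios from −1.04 (*Procr*) to −0.11 (*Anxa8*).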

How the data were processed

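Per the labels, periosteal cells of 2 genotypes were captured on the BD Rhapsody system, and the study's methods add the sort and the read trimming. The authors deposited raw UMI counts per gene and cell for 31253 genes, without normalization. The submitters' processing notes name fastp, STAR, UMI-tools and Seurat 4.0.3. The genome build, annotation and strand setting are not given in the sources used here, so overlapping genes cannot be told apart. No normalized or pooled columns were used.

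The members and gene lists were chosen with earlier results of these data known. UMIs were summed per group and library and scaled to CPM. Levels carry exact Poisson, ratios exact conditional and shares exact binomial (Clopper-Pearson) intervals at 95%, all for counting error only. Log2 ratios had 0.5 UMIs added to both counts. A gene counted as past the fold at 2-fold or more, in the same direction in both libraries where the contrast lies within a library. Equal depth means a random draw of 2500 UMIs from each cell (seed 1), without the shallower cells. The script was tested on simulated data. Doublets were called by Scrublet in scanpy 1.11.5 (expected rate 0.05, barcodes with at least 500 genes) for 1 alternative, 46 (0.829%) and 67 (0.988%), of which 8 and 13 were members; they stay in the values reported. Python 3.11.15, numpy 2.4.6 and scipy 1.17.1 were used.

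Named genes had the highest log2 ratios in either direction, ranked by the weaker library, 10 each way against the *Gdf10* and *Inmt* fibroblasts and 8 each way against all other cells and between genotypes. The side with the higher level needed 100 UMIs and 50 CPM. Mitochondrial, ribosomal protein, hemoglobin, Xist, Y-linked, predicted and rule genes were left out. The split into *Pi16*-led and *Sema3e* and *Anxa8*-led cells, its named genes and the other list members named were chosen after their values were seen. Some genes that met these rules are not reported here.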

Additional observations from a re-analysis of the deposited data

Results flagged for a closer look

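A few marker lists had median log2 ratios of opposite sign in the libraries, by at least 0.3 in each, and with 1 library per genotype these differences were not tested. For the osteogenic markers, *Pi16* and *Dpp4* over *Gdf10* and *Inmt* fibroblasts gave −0.50 in the control library and 0.50 with Piezo1 fl/fl, and *Pi16*-led over *Sema3e* and *Anxa8*-led cells gave 0.63 and −0.35. For the cell cycle list, of which 2 genes were measured, the first contrast gave −0.44 and 4.02. *Top2a*, a topoisomerase of dividing cells, was found in 7 control and 11 Piezo1 fl/fl members, and 5 cells held 96.6% and 93.4% of its UMIs. For the muscle list, with *Acta1* alone measured, it gave 2.21 and −0.67.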

How the results depend on the processing

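The share of members moved with the rule. In the control and Piezo1 fl/fl libraries it was 14.0% and 14.3% with 500 to 6000 genes per cell, 17.3% and 19.2% with mitochondrial UMIs under 10%, 14.3% and 15.02% with at least 5 UMIs of the *Pi16* set, 13.1% and 14.4% with *Dpt* and *Clec3b* at 20 per 10000, and 11.1% and 12.6% with the set cut to *Pi16*, *Dpp4* and *Sema3e*. With at least 2 UMIs the Piezo1 fl/fl share was 19.8%. Thinned to 2500 UMIs it was 13.8% in the control library and 13.1% with Piezo1 fl/fl, so the order of the libraries turned. Removing doublets or a limit of 5 per 10000 kept both shares within their intervals.

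Counts of genes past 2-fold mostly stayed within 1.5 times. In thinned cells, genes lower than in the *Gdf10* and *Inmt* fibroblasts numbered 138, and the Piezo1 fl/fl contrast gave 67 higher and 72 lower. With at least 20 UMIs per gene that contrast gave 252 and 311. In alternatives added after the data were seen, it gave 76 and 92 in *Pi16*-led members, and *Sema3e* and *Anxa8*-led members had 337 genes lower than the *Gdf10* and *Inmt* fibroblasts. What moved these counts was not tested. No paired analysis was possible because each genotype has 1 library.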
